A study of Saccharomyces cerevisiae with 4 samples.

Results

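KCS1 and TVS1 are a pair of genes of the budding yeast Saccharomyces cerevisiae in which the transcription factor Pho4 was found inside the coding sequence rather than upstream of it. Their peaks were chosen by position: every interval in the 4 deposited peak lists that overlapped the KCS1 or the TVS1 gene body by at least 1 bp was taken. This gave 7 peaks, out of 3819 in the sequence that all 4 lists reach, over 2 of its 2509 protein-coding genes. KCS1 had 1 peak in each of the 4 lists, and TVS1 had 1 peak in each Pho4 list and in the Cbf1 replicate 2 list. Of all gene bodies, 21.5% and 18.4% were overlapped by a peak of Pho4 replicates 1 and 2, and 24.6% and 23.2% by one of Cbf1 replicates 1 and 2.

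The lists came from 2 ChIP-nexus libraries of Pho4 and 2 of Cbf1, the other factor that reads the same E-box, CACGTG. ChIP-nexus is a chromatin immunoprecipitation that digests each captured fragment with exonuclease until it meets the bound protein. The Pho4 libraries came from the W303 strain Z1441, of genotype PHO4::9myc::TRP1, and the Cbf1 libraries from the W303 strain Z1497, of genotype CBF1::9myc::TRP1. Both proteins carried the Myc tag and were precipitated with the same antibody, 9E10. All 4 samples carry the same growth label: rich medium at 25 °C, then 2 h in phosphate-free medium to induce Pho4. No phosphate-rich, untagged or input sample was analysed here, so no peak was set against a control beyond the background that the peak caller used. Whether the submitters called peaks against a control sample is not given in the sources used here. Nothing in the labels says whether replicates were separate cultures, so the spread between them may be technical.

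Pho4 is the basic helix-loop-helix activator of the phosphate starvation response, held out of the nucleus by the Pho80-Pho85 kinase when phosphate is plentiful. KCS1 encodes the inositol hexakisphosphate kinase that makes inositol pyrophosphates, small molecules that report the phosphate state of the cell to proteins with an SPX domain. Earlier work on KCS1 in this yeast described antisense and shorter intragenic RNAs that depend on Pho4. RNA was not measured in this series. Cbf1 is the factor of sulfur metabolism genes and centromeres.

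The sequences that carry the result are the E-boxes under the Pho4 summits, shown with the second E-box of KCS1, which had no peak. They are read 5′ to 3′ along the coding strand from the R64 reference, with CACGTG and CACGTT in capitals. The coordinates are chrIV:481810-481909 (minus strand) for KCS1 in the peak, chrIII:226174-226273 (plus strand) for TVS1, and chrIV:480855-480890 (minus strand) for the second KCS1 site.
KCS1, site in the peak: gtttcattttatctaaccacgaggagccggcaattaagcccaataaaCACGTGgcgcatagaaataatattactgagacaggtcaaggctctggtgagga
TVS1, site in the peak: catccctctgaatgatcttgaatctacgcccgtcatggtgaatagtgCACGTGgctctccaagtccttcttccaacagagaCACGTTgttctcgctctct
KCS1, site without a peak: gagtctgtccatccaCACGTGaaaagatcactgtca

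KCS1 (YDR017C, R64 chromosome IV, 479115 to 482267, minus strand, 1 uninterrupted coding segment of 3153 bp) held the peak of highest fold among all summits inside gene bodies in both Pho4 lists. Fold here is the authors' fold enrichment, the summit height over the local background, as their peak caller gave it for each peak. The fold at KCS1 was 39.0 in Pho4 replicate 1 and 39.8 in Pho4 replicate 2, which is 39.4 ± 0.512 (SD, n = 2). In that sequence it was the highest of 941 peaks in replicate 2 and ranked 3 among 1105 in replicate 1. Over the whole lists, which stop at different chromosomes, it ranked 2 of 2210 in replicate 2 and 6 of 2026 in replicate 1. These values and ranks are those for which the gene was chosen and are given as a description.

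The heights behind these folds are large. The fold and p columns imply a summit of 3574 reads over a background of 90.6 in replicate 1, and 2307 reads over 57.1 in replicate 2. These backgrounds are also high, since the median over all compared peaks was 22.68 and 11.85 reads in Pho4 replicates 1 and 2. Counting error on the summit alone gives a 95% Poisson interval for the fold of 37.8 to 40.3 in replicate 1 and 38.1 to 41.4 in replicate 2. The nearest folds in the lists were 39.1 above and 37.1 below it in replicate 1, and 38.3 below it in replicate 2, so the order among the topmost peaks lies partly within counting error.

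The Pho4 peak at KCS1 began 160 bp and ended 646 bp after the first base of the start codon in replicate 1, and ran from 173 to 613 bp in replicate 2. The intervals were 487 and 441 bp wide and shared 441 bp. The summits lay 427 and 398 bp into the gene, at positions 481840 and 481869, or 13.5% and 12.6% of its length. Neither interval reached the start codon, and no Pho4 or Cbf1 list had a summit within 1000 bp upstream of it. The CACGTG of the peak occupies 481857 to 481862 and begins at codon 136, on the first base of the codon. Its centre was 19.5 bp from the summit in replicate 1 and 9.5 bp in replicate 2, with the summits on opposite sides of it.

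The second CACGTG of KCS1 (480870 to 480875, from codon 465) was 967.5 and 996.5 bp from the nearest Pho4 summit, and no list had a peak over it. Its flanks differ from those of the first site. Read from either strand, the site in the peak has A or C directly 5′ of the core, while the site without a peak has A on the coding strand and T on the other. T in this place, called a T flank below, is known to weaken Pho4 binding and to be tolerated by Cbf1. Whether the flank bears on the missing peak at this site was not tested. The 3 CACGTT sites of KCS1, a related core that Pho4 also binds, were at least 701.5 bp from the Pho4 summits and outside every peak.

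TVS1 (YCR061W, R64 chromosome III, 225563 to 227458, plus strand, 1 uninterrupted coding segment of 1896 bp) had a lower and wider Pho4 peak. The fold was 22.8 in Pho4 replicate 1 and 23.5 in replicate 2, or 23.2 ± 0.547 (SD, n = 2), at ranks 26 of 1105 and 22 of 941. Over the whole lists the ranks were 43 of 2026 and 47 of 2210. The implied summits were 1921 reads over 83.4 and 1222 reads over 50.9, with 95% Poisson intervals for the fold of 21.8 to 23.8 and 22.2 to 24.9. KCS1 exceeded TVS1 by 1.71 times in replicate 1 and 1.69 times in replicate 2. Both replicates placed the genes in the same order, and the intervals, which cover counting error on the summit alone, do not meet. The genes were chosen for these peaks, so this is a description.

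The TVS1 peaks were 600 and 609 bp wide and shared 595 bp. They covered 31.6% and 32.1% of the gene, against 15.4% and 14.0% for the Pho4 peaks of KCS1. The summits lay 692 and 666 bp into the gene, at positions 226255 and 226229, or 36.5% and 35.1% of its length. The CACGTG of TVS1 (226221 to 226226, from codon 220, on the second base of the codon) was 31.5 and 5.5 bp from these summits. A CACGTT at 226255 to 226260 was 2.5 and 28.5 bp from them, so the core nearest the summit was CACGTT in replicate 1 and CACGTG in replicate 2. A second CACGTT, at 226514 to 226519 on the other strand, lay in both Pho4 intervals, 261.5 and 287.5 bp from the summits. No list had a summit within 1000 bp upstream of the TVS1 start codon.

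**Figure D1:**
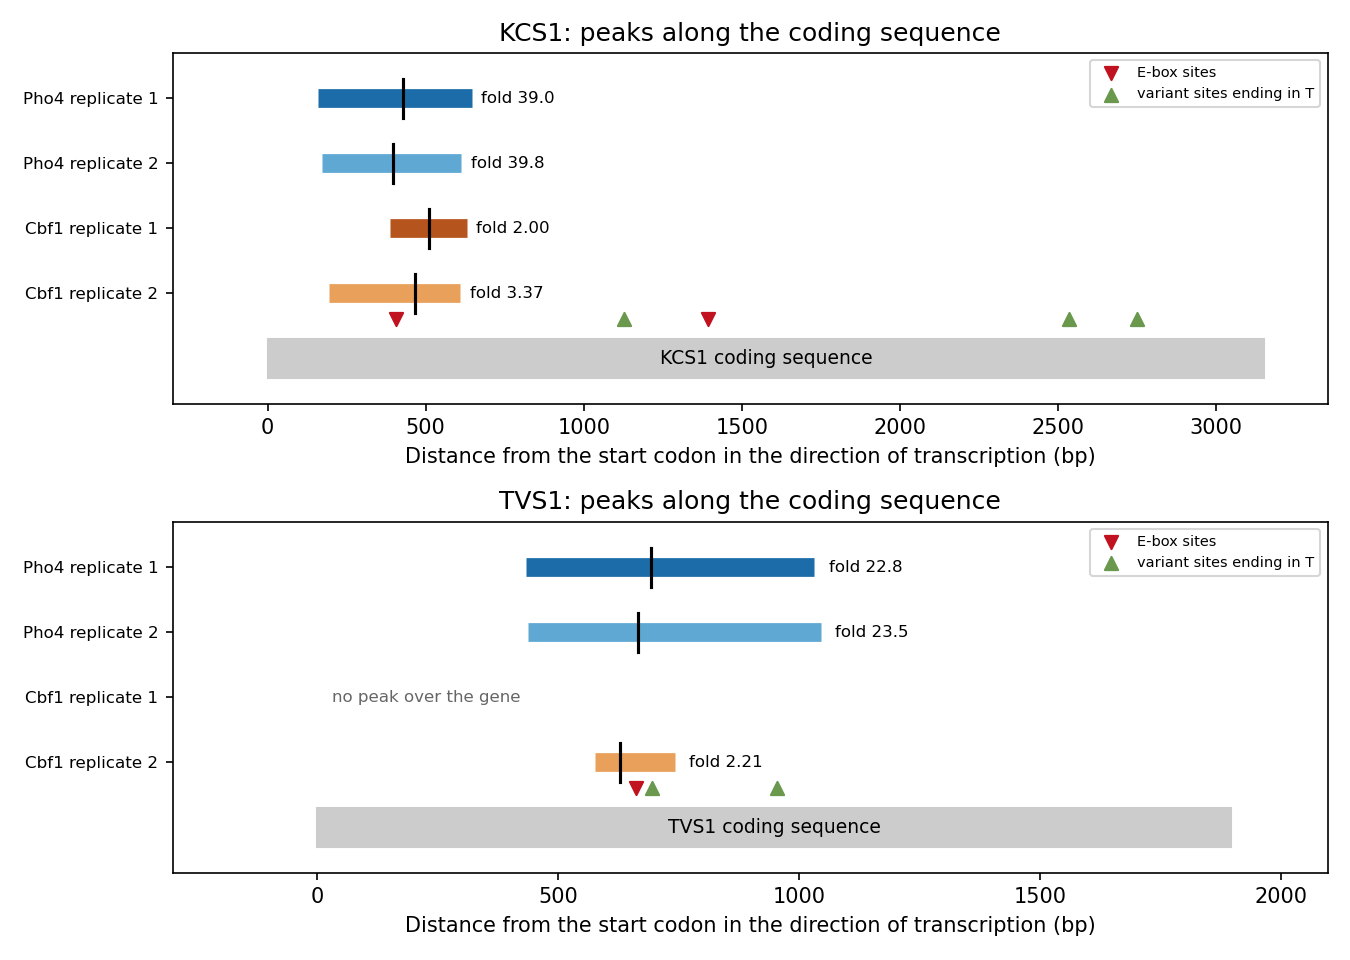
Peaks of the 4 libraries over KCS1 (upper panel) and TVS1 (lower panel), by distance from the start codon in bp along the direction of transcription; bars are peak intervals, black ticks are summits, down triangles are CACGTG and up triangles CACGTT sites, and the grey box is the gene. The Pho4 summits lie 427 and 398 bp into KCS1 and 692 and 666 bp into TVS1, and no peak lies over the second E-box of KCS1.

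No other Pho4 peak lay close to KCS1. The next Pho4 summit on either side of the KCS1 summit was 16451 and 7093 bp away in replicate 1 and 16475 and 7081 bp away in replicate 2, with folds from 3.43 to 4.30. The neighbours of KCS1 are HED1, DAD1, a subunit of the Dam1 kinetochore complex, MLG1, and GCV1, a subunit of glycine decarboxylase. Their gene bodies lie 829, 356, 402 and 1895 bp from that of KCS1. In no list did a peak overlap any of the 4, and no summit lay within 500 bp upstream of any. The nearest start codon of a neighbour was that of MLG1, 2020 and 1991 bp from the Pho4 summits, and that of DAD1 was 3082 and 3111 bp away.

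At TVS1 the next Pho4 summit to the left was 9763 and 9623 bp away, with folds of 2.73 and 2.63. To the right, a summit 2498 and 2526 bp away lay in BUD31, a splicing factor gene, with folds of 7.21 and 5.53. Those BUD31 peaks began 1104 bp past the end of TVS1 in both replicates and are the nearest Pho4 peaks outside the gene. The other neighbours are YIH1, a regulator of the Gcn2 kinase, TAH1, a cochaperone of Hsp90, and HCM1, a forkhead transcription factor gene. None of these 3 had a Pho4 peak over its body or a Pho4 summit within 500 bp upstream. The start codons of TAH1, YIH1 and BUD31 were 1856, 2025 and 2063 bp from the replicate 1 summit. In the Cbf1 lists, YIH1 and BUD31 were overlapped by peaks in both replicates, and a Cbf1 summit lay within 500 bp upstream of BUD31 in both.

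Cbf1 peaks over the same stretches were low. At KCS1 the Cbf1 fold was 2.00 in replicate 1 and 3.37 in replicate 2, at ranks 594 of 920 and 319 of 853. The implied heights were 52 reads over 25.4 and 57 reads over 16.2, and the 95% Poisson intervals of the fold were 1.51 to 2.62 and 2.56 to 4.34. Both lie far below the Pho4 values of 39.0 and 39.8. The Pho4 fold exceeded the Cbf1 fold of the same replicate number by 19.5 and 11.8 times. On the log2 scale the Pho4 fold was 5.30 ± 0.02 and the Cbf1 fold was 1.38 ± 0.53 (SD, n = 2 each). The fold scales of the lists differ. In the sequence that all 4 lists reach, the highest fold was 42.7 and 39.8 in Pho4 replicates 1 and 2. For Cbf1 replicates 1 and 2 it was 18.0 and 28.6. No test is given, since the rule read the peaks of all 4 lists.

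The Cbf1 summits at KCS1 were listed at 481758 and 481802. This is 101.5 and 57.5 bp from the centre of the E-box, further into the gene, although both Cbf1 intervals included it. The summits were 44 bp apart and rest on 52 and 57 reads, and whether Cbf1 bound away from the E-box was not tested. At TVS1 the only Cbf1 peak had a fold of 2.21 in replicate 2, rank 635 of 853, with an interval of 1.72 to 2.80. It was 166 bp wide with a summit at 226190, 33.5 bp from the CACGTG. Cbf1 replicate 1 had no peak over TVS1. Its nearest peak began 393 bp past the end of the gene, with a fold of 3.05, and Cbf1 replicate 2 had a peak of fold 4.04 from the same position.

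**Figure D2:**
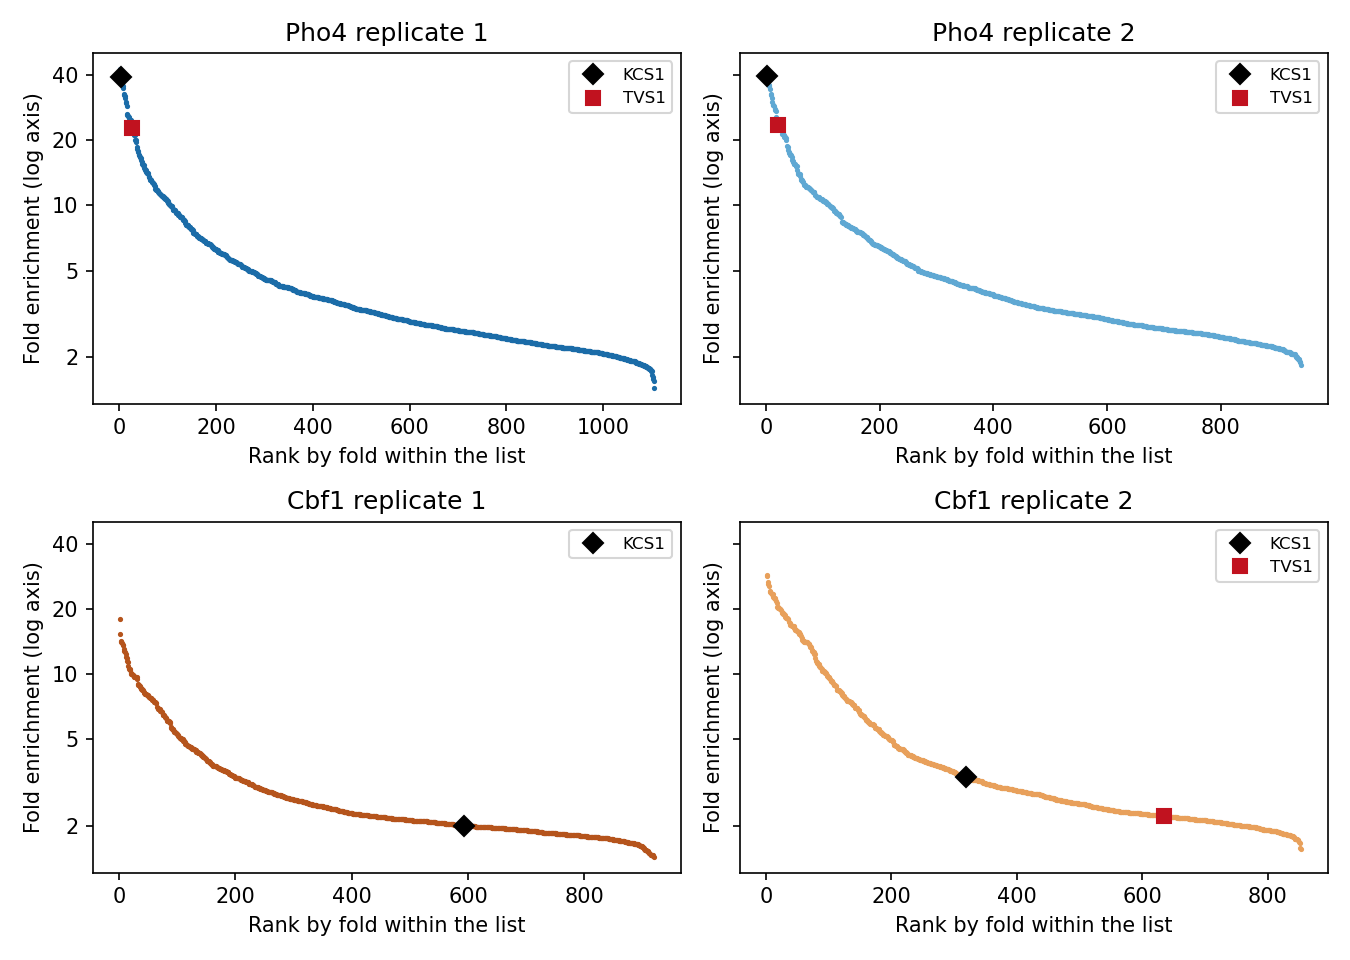
The authors' fold enrichment (log axis) against rank within the compared sequence for each of the 4 lists, with KCS1 as a diamond and TVS1 as a square. KCS1 holds ranks 3 and 1 for Pho4 and ranks 594 and 319 for Cbf1. TVS1 holds ranks 26 and 22 for Pho4 and 635 in Cbf1 replicate 2, and is absent from Cbf1 replicate 1.

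A Pho4 peak over a gene body is common by itself. Peaks of both Pho4 replicates overlapped 389 of the 2509 gene bodies, or 15.5%, KCS1 and TVS1 among them by choice. Peaks of all 4 lists overlapped 189 bodies, or 7.53%, which include KCS1 and not TVS1. A stricter count takes genes with a summit of both Pho4 replicates inside the body, and 261 genes met it, or 10.4%. The median Pho4 fold of the best summit in these 261 genes was 3.55 in replicate 1 and 3.56 in replicate 2. By mean Pho4 fold percentile, KCS1 ranked first and TVS1 ranked 6 of the 261. The percentile is the share of a list's peaks with a lower fold, and it was 99.7 and 99.9 for KCS1 and 97.6 and 97.7 for TVS1.

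The distance to the next gene start was taken for all 261 genes. In 222 of them, or 85.1%, both summits were over 500 bp from any gene start downstream of them, KCS1 and TVS1 included. In 141 of the 261 genes, or 54.0%, this distance was over 1000 bp. Within those 141, KCS1 ranked first and TVS1 ranked 3. The median summit position of the 261 genes was 53.2% along the gene, and 65 genes had it in the first 25% of their length, as KCS1 did, and 131 between 25% and 75%, as TVS1 did.

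The 5 other genes of highest mean Pho4 percentile are QRI7, a mitochondrial tRNA modification enzyme, CWC21, a spliceosome component, YCR025C, SPC25, a kinetochore subunit, and DNF2, a phospholipid flippase. Each had CACGTG within 50 bp of the summit and no T flank on either strand, as did KCS1 and TVS1. Of all 261 genes, 99 (37.9%) had CACGTG within 50 bp of both summits, 76 of them without a T flank. The sites of the 5 genes, on the coding strand with the core in capitals, are shown to set their flanks beside those above.
QRI7 (chrIV:273949-273974, minus strand): taaactgaagCACGTGctcaagtcac
CWC21 (chrIV:1420769-1420794, minus strand): tacgtcgggcCACGTGcagcgatcac
YCR025C (chrIII:163679-163704, minus strand): cctagaatccCACGTGcacccatacc
SPC25 (chrV:192018-192043, minus strand): aacacttgagCACGTGcttaccgtcc
DNF2 (chrIV:636037-636062, plus strand): gtggaaagagCACGTGcctcgctgga

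The Pho4 folds of these genes in replicates 1 and 2 were 34.8 and 36.1 for QRI7, 37.1 and 32.5 for CWC21, and 24.9 and 27.9 for YCR025C. They were 25.9 and 23.1 for SPC25 and 23.3 and 23.5 for DNF2. All 5 also had a Cbf1 summit in the body in both lists, with Cbf1 folds from 3.23 at YCR025C in replicate 1 to 20.3 at SPC25 in replicate 2. KCS1, above all 5 by Pho4, had lower Cbf1 folds than any of them in the same list, and TVS1 had a Cbf1 peak in 1 list alone. These are folds of any Cbf1 summit in the body. At SPC25 the Cbf1 summits, at 192073 in both lists, lay nearer a second CACGTG than the site shown. That second site, 192085 to 192090, has a T flank on 1 strand and no Pho4 summit within 50 bp. Over the 261 genes, 104 had a Cbf1 summit in the body in both Cbf1 lists, 55 in 1 list and 102 in neither. The summits of the Pho4 replicates lay 0 to 5 bp apart in the 5 genes, and 29 bp apart in KCS1 and 26 bp in TVS1. The median over the 261 genes was 31 bp.

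**Figure D3:**
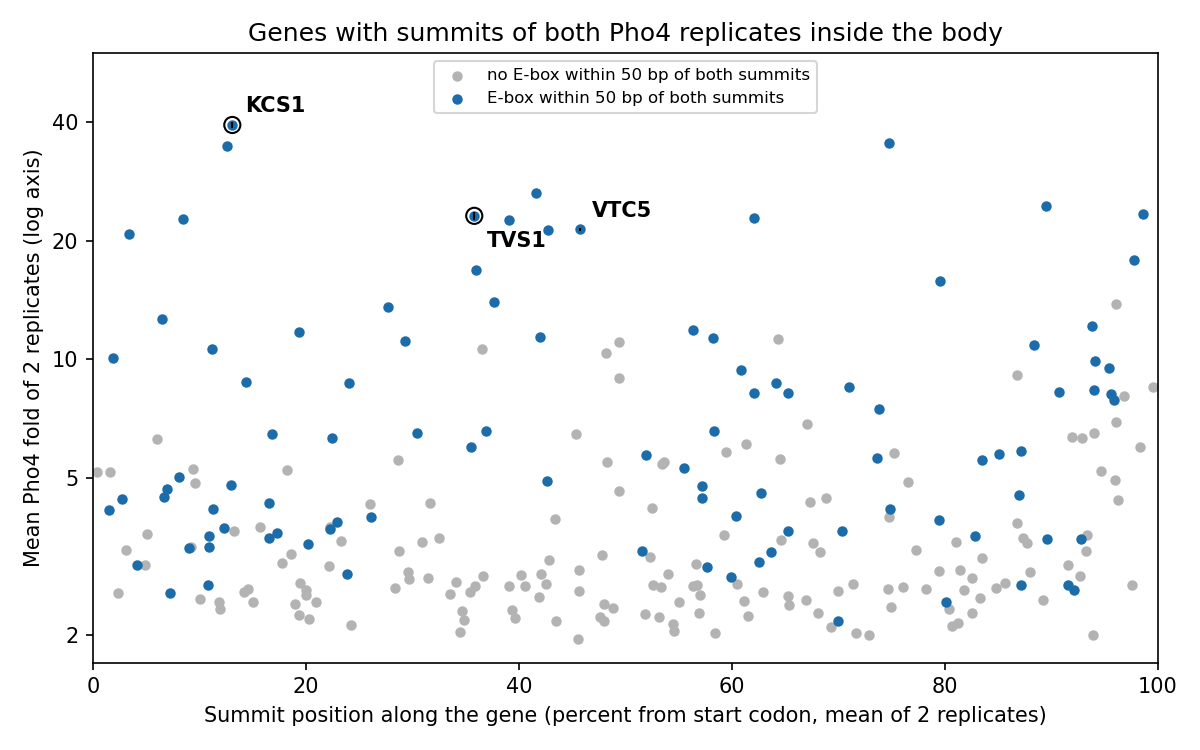
Mean Pho4 fold of 2 replicates (log axis) against the mean position of the summit along the gene (percent from the start codon) for the 261 genes with summits of both Pho4 replicates in the body; blue points have CACGTG within 50 bp of both summits, and vertical bars at named genes join the replicates. KCS1 is the highest point, at 13.1% of its length, and TVS1 lies at 35.8%.

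Likeness to the members was measured over the 4 libraries as the Euclidean distance between fold percentiles, with 0 where a list had no summit in the gene. The genes most like KCS1 were YGL034C at 13.3 percentile points, BPL1, a biotin ligase gene, at 13.8, and ECM11, a meiotic gene, at 18.8. Their Pho4 folds were lower, at 22.5 and 22.9 in YGL034C, 11.0 and 12.5 in BPL1 and 9.07 and 8.39 in ECM11. The genes most like TVS1 were RRT12, a spore wall gene, at 8.41 points, SPF1, a P-type ATPase gene of the endoplasmic reticulum, at 18.5, and BST1, a GPI inositol deacylase gene, at 20.0. RRT12 had Pho4 folds of 10.0 and 12.8, no Cbf1 replicate 1 summit and a Cbf1 replicate 2 fold of 2.22.

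The genome sequence gives the E-boxes a count that does not depend on peaks. The compared sequence holds 399 CACGTG sites, 236 of them inside the bodies of 213 genes, or 8.49% of genes. Pho4 summits lay within 50 bp of 53.8% of the sites inside bodies in replicate 1 (95% Wilson interval 47.4 to 60.1) and 49.2% in replicate 2 (42.8 to 55.5). Cbf1 summits lay near 29.2% (23.8 to 35.3) and 37.3% (31.4 to 43.6) of them. Pho4 averaged 51.5% ± 3.30 (SD, n = 2), and Cbf1 averaged 33.3% ± 5.69 (SD, n = 2). Cbf1 minus Pho4 came to -18.2 percentage points, which exceeds the replicate spread of either factor. The exact permutation p, two-sided, was 0.333, the smallest that 2 libraries against 2 allow. By gene, 101 of 2509 (4.03%) had a CACGTG in the body within 50 bp of a summit of both Pho4 lists.

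Among the 236 sites, 119 have no T directly 5′ of the core, 100 have it on 1 strand and 17 on both. Pho4 summits of both replicates lay near 80 of the 119, 23 of the 100 and 0 of the 17. A single site of the last class had a summit in replicate 2 alone, and the 0 of 17 in replicate 1 allows a share of up to 17.6%, taken as 3 counts of 17. By library, the Pho4 shares with a summit were 74.8% and 70.6% in the class of 119, 38% and 31% in the class of 100, and 0% and 5.88% in the class of 17. For Cbf1 they were 16.8% and 26.9%, 40% and 44%, and 52.9% and 70.6% in the same order. The lower Cbf1 share over all 236 sites thus held in the class without a T flank, and both Cbf1 values were above both Pho4 values in the other classes. The KCS1 site in the peak had the highest mean Pho4 fold of the 236, and the TVS1 site ranked 7. Both belong to the class of 119. The second KCS1 site belongs to the class of 100, in which 54 sites had no summit in either Pho4 list and the highest mean fold was 12.1. In the other classes, 26 of the 119 and 16 of the 17 had no summit in either Pho4 list. KCS1 is 1 of 20 genes with several CACGTG sites. In 12 of these, KCS1 included, some sites and not others had summits of both Pho4 lists, in 7 none had, and in 1 all had.

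**Figure D4:**
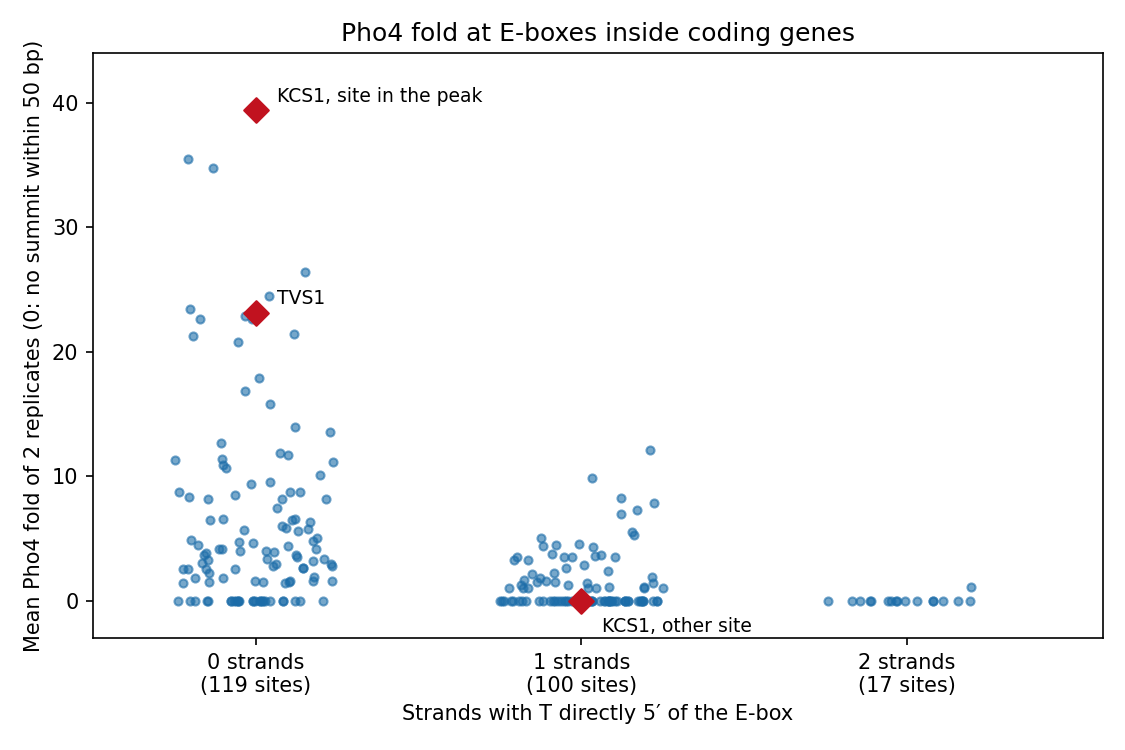
Mean Pho4 fold of 2 replicates at each of the 236 CACGTG sites inside gene bodies, by the number of strands with T directly 5′ of the core; a site with no summit within 50 bp in a list counts as 0 there, diamonds are the sites of KCS1 and TVS1, and points are spread sideways for display. The KCS1 site in the peak is the highest at 39.4 and the other KCS1 site is at 0.

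A CACGTT beside a CACGTG, as in TVS1, was uncommon under Pho4 summits in genes. Windows of 101 bp centred on summits inside bodies held CACGTG in 27.8% and 30.4% of cases for replicates 1 and 2, CACGTT on either strand in 17.9% and 15.9%, and both in 6 of 453 and 5 of 378. Windows of the same length laid end to end over all gene bodies held CACGTG in 0.614%, CACGTT in 3.10% and both in 9 of 34875. The cores do not overlap in TVS1.

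KCS1 belongs to the inositol pyrophosphate pathway, whose products are read by SPX proteins. Of 16 such genes listed, 6 lie in the compared sequence: ARG82 and IPK1, inositol phosphate kinases that act before Kcs1, and the SPX genes VTC2, VTC5, PHO87 and SYG1. Of these 6, 2 had a Pho4 peak of both replicates over the body, PHO87 and VTC5, set against the 15.5% of all genes. PHO87, a phosphate transporter, had folds of 36.5 and 36.2, but its summits fell in the 500 bp before the start codon. VTC5, a subunit of the vacuolar polyphosphate polymerase complex, was the 1 listed gene with both summits inside the body. Its folds were 21.4 and 21.5 in Pho4 replicates 1 and 2, and no Cbf1 peak overlapped it. Its summits lay 1200 and 1186 bp into the gene, close to a CACGTG without a T flank, and it ranked 11 of the 261 genes.

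Of the listed genes in the compared sequence, those other than VTC5 carried Pho4 in their promoters or hardly at all. Summits of both Pho4 lists lay within 500 bp upstream of 4 of the 6, against 19.0% of all genes. They were PHO87, VTC2, the polyphosphate complex gene, with folds of 36.8 and 35.5, SYG1 with 11.8 and 15.2, and ARG82 with 8.12 and 6.15. IPK1 had a peak over the body in Pho4 replicate 1, with a fold of 2.85, and none in replicate 2. PLC1, VIP1, DDP1, SIW14, VTC3, VTC4, PHO81, PHO90, PHO91 and GDE1 lie past the compared sequence and were not analysed here.

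Over all peaks of the compared sequence, Cbf1 summits lay inside gene bodies more often than those of Pho4. The shares were 41.0% and 40.2% for Pho4 and 52.4% and 56.4% for Cbf1, with means of 40.6% ± 0.584 and 54.4% ± 2.83 (SD, n = 2 each). The difference of 13.8 percentage points was larger than the replicate spread of either factor, at an exact permutation p of 0.333, again the smallest possible. With only the upper 50% of peaks by −log10 q kept, the difference was 8.49 points. The median fold of summits inside bodies was below that of summits outside in all 4 lists, with 2.70 and 2.95 inside and 3.36 and 3.77 outside for Pho4. Among the 50 peaks of highest fold in each list the order was not the same. There, 14 and 17 Pho4 peaks and 15 and 11 Cbf1 peaks of replicates 1 and 2 had the summit inside a body.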

How the data were processed

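Peak lists from 2 Pho4 and 2 Cbf1 ChIP-nexus libraries were analysed, 1 list per library. Per the submitters' processing notes, cutadapt 1.8.1, Bowtie 1.1.2, SAMtools 1.3.1, bedtools and MACS2 2.1.1 were used with build sacCer3, and their settings are not given in the sources used here. sacCer3 is the R64 assembly, so RefSeq R64 (strain S288C) sequence and genes were used. W303 may differ at single sites.

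The authors' deposited fold column is the ratio of summit height to local background. The authors' deposited −log10 p and −log10 q columns served for ranking, and the deposited score column was not used further. Read depth is not part of the lists. A whole summit height k and background b were solved from fold = (k + 1)/(b + 1) and the Poisson p, and matched −log10 p within 0.001 (0.006 above 1000) for 98.8% to 99.5% of peaks. Median heights were 73 and 43 reads for Pho4 and 65 and 51 for Cbf1. Intervals cover counting error only.

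The lists stop at different chromosomes in text order, so ranks and counts use the 5035657 bp of 8 chromosomes that all 4 reach. This held 1105 and 941 Pho4 and 920 and 853 Cbf1 peaks. A gene body runs from start to stop codon. Named genes are the members, their 2 neighbours on each side, the listed pathway genes, the 5 other genes of highest mean Pho4 percentile with both summits inside, and the 3 most alike per member. Members and lists were chosen with earlier results of these data known. Shares were compared by exact permutation over the 6 assignments of libraries, two-sided. Alternatives were other ranking columns, thresholds, windows, overlap rules and left-out libraries. Procedures were tested on simulated data. Python 3.11.15, numpy 2.4.6, pandas 2.3.3 and scipy 1.17.1 were used.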

Additional observations from a re-analysis of the deposited data

How the results depend on the processing

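KCS1 and TVS1 kept Pho4 peaks of both replicates under every overlap rule and threshold tried. The genes were chosen for these peaks, which have high folds and lie wholly inside the bodies. The settings could hardly have removed them, so this is given as a description. The count of genes with such peaks was 389 and moved to 178 with summits inside the body and at most 50 bp apart, and to 225 with the upper 50% of each list. The listed genes fell from 2 to 1 when the summit had to lie inside the body, also under the 50 bp limit between summits. The mean Pho4 percentile of KCS1 (99.8) was 99.6 in the upper 50% of each list. That of TVS1 (97.7) was 98.7 when ranked by −log10 q, 95.3 in the upper 50% and 97.9 over whole lists. The Cbf1 percentile minus the Pho4 percentile at KCS1 was -50.8 and moved to -85.9 in the upper 50%, where the Cbf1 replicate 1 peak is no longer listed and counts as 0. With Cbf1 replicates 1 and 2 left out in turn it was -37.2 and -64.5. The middle of the peak in place of the summit put TVS1 at 38.8% of the gene. The difference in summits inside bodies (13.8 points) was 8.49 points in the upper 50%. Of 61 alternative values, 51 were classed as unchanged, the 8.49 points among them, and 10 as moved. The classes do not follow the size of a change, so these counts do not measure stability. The 261 genes with the summit inside, in place of 389, were classed as unchanged, and the KCS1 percentile of 99.6 as moved. No difference between factors changed sign. Counts, percentiles and positions have no direction to change, and a shorter list by itself lowers the percentile of a top peak. Equal replicate numbers share only a number in the labels. With replicate number as a block, the differences between factors were 13.8 and -18.2 percentage points, with a smallest possible exact permutation p of 0.5. Each number holds 1 library of each factor, so the block cannot change a difference between factors. Such values, at KCS1 and TVS1 too, are counted among the 51 classed as unchanged. Deviations of same-numbered libraries correlated with r = 0.147 over 104 genes. Read totals are not part of the lists. The Cbf1 peaks over KCS1 and TVS1 rest on summits of 52, 57 and 67 reads.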

Other observations

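The bound E-box of KCS1 begins at codon 136 of 1051, counting the stop codon, and the next ATG in the reading frame is codon 226, which is 270 bp further on. In TVS1 the E-box begins at codon 220 of 632, and the next ATG in frame is codon 308. RNA and protein were not measured in this series.

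SCS3, a gene of lipid droplet formation named here after its values were seen, also had a Pho4 E-box peak inside its body, with folds of 24.7 and 21.1, beside a separate Cbf1 summit of fold 10.5 and 20.0 inside the same body.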
